A study of Mus musculus with 57 samples.

Results

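The nuclear genes of the mitochondrial respiratory chain were followed through developing mouse tissues in 57 bulk RNA-seq libraries. Members were all genes named Nduf with a, b, c, s or v, Sdh with a, b, c or d, Uqcr, Cox followed by a digit from 4 to 8, or Atp5, that the deposited annotation types as protein-coding. This gave 96 members of the 56860 genes in the tables, of which 21811 are protein-coding. Complex I holds 46 of them, with 7 core subunits, 30 accessory subunits, 8 assembly factors (Ndufaf1 to Ndufaf8, which carry the name but are not part of the finished enzyme) and the copy Ndufb11b. Complex II holds 4, complex III 8, complex IV 21 and complex V 17. Ndufa4 and Ndufa4l2 were counted with complex IV, where their proteins are now placed. The members lie on 19 different chromosomes, the X included.

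Each library was polyA-selected RNA from a tissue of an embryo in the 129/Sv background, either wild-type (wt) or Hoxa5-/-, in which a neomycin cassette inserted into the homeobox removes the function of this positional transcription factor. No other allele or treatment was used. Each genotype had 4 libraries for trachea, lung and diaphragm at E15.5, for lung at E12.5 and for somites at E12.5. At E10.5 the somites gave 4 wt libraries but 3 of Hoxa5-/-. For iBAT, the brown adipose tissue between the shoulder blades, there were 5 per genotype at E18.5. The somite samples were trunk segments from the third cervical to the second thoracic level, freed of neural tube, forelimbs and thoracic organs. A first table covers the respiratory tissues (32 libraries, single-end, 100-base reads) and a separate one, from another sequencing centre, the somites and brown fat (25 libraries, paired-end, 150-base reads), so tissues were tested only inside a table. In bulk tissue, fewer cells of a type and less RNA per cell cannot be told apart.

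The respiratory chain is a series of protein complexes in the inner mitochondrial membrane. Complex I (NADH dehydrogenase) and complex II (succinate dehydrogenase, also an enzyme of the citric acid cycle) pass electrons to ubiquinone, complex III passes them on to cytochrome c, and complex IV (cytochrome c oxidase) hands them to oxygen. Complexes I, III and IV pump protons, and complex V (ATP synthase) uses the proton gradient to make ATP. A few core subunits are encoded by mitochondrial DNA and all others by the nucleus. Several nuclear subunits of complex IV exist as pairs of isoforms, with a widely expressed form and a form typical of muscle, lung or low oxygen. Brown fat is packed with mitochondria, whose proton gradient is released as heat by Ucp1 in place of ATP synthesis, and heart and skeletal muscle are rich in mitochondria as well.

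The bases before the transcription start of 3 such pairs are shown, because the levels of the muscle form and the common form of each ran apart between the tissues described below. They were read 5′ to 3′ on the gene's strand from the GRCm39 assembly at the canonical start of the deposited annotation, and capitals mark letters that match a searched motif. The Cox7a1 window was cut back to the outermost annotated start of the gene, which leaves 200 bases. In the Cox6a1 window, 31 bases lie in an annotated exon. The windows lie at chr5:115487041-115487290 (minus strand) for Cox6a1, chr7:127805560-127805809 (minus) for Cox6a2, chr9:79667161-79667410 (minus) for Cox7a2, chr7:29883369-29883568 (plus) for Cox7a1, chr19:7194982-7195231 (minus) for Cox8a and chr7:140480360-140480609 (minus) for Cox8b.
Cox6a1: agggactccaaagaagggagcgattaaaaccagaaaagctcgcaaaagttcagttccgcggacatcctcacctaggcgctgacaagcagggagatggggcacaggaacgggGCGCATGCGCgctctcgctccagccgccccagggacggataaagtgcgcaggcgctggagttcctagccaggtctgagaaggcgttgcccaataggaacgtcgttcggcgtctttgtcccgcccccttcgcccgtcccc
Cox6a2: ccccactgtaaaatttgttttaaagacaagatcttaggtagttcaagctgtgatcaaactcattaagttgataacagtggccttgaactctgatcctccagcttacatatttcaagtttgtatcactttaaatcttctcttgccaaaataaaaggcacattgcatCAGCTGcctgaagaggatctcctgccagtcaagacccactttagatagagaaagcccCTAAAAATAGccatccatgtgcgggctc
Cox7a2: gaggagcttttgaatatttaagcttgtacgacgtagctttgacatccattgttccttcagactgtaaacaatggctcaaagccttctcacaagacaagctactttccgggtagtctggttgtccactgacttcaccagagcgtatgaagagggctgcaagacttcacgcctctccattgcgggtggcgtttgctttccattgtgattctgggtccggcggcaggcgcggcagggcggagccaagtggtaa
Cox7a1: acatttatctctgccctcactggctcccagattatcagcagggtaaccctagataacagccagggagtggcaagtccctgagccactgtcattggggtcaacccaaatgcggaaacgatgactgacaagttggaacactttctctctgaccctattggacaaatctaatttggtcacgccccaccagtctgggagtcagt
Cox8a: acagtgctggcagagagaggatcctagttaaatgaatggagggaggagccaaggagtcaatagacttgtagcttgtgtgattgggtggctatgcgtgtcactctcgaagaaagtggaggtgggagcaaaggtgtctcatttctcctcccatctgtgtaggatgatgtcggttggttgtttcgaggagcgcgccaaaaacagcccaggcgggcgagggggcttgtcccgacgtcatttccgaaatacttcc
Cox8b: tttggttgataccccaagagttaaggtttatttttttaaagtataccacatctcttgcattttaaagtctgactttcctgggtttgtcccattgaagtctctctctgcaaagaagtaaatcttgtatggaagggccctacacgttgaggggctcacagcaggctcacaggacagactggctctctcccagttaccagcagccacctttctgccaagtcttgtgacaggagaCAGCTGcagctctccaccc

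The capitals in Cox6a1 are the palindromic core motif of NRF1, at bases -139 to -130 counted from the start. Those in Cox6a2 are the MEF2 pattern at -28 to -19 and the E-box CAGCTG at -85 to -80, and those in Cox8b an E-box at -19 to -14. MEF2 proteins and the myogenic E-box factors regulate muscle genes, and NRF1 and the ERR receptors regulate mitochondrial genes. Within 250 bases before the start, on either strand, 4 of 96 members (4.17%) held the NRF1 motif, against 0.978% of 21783 protein-coding genes. The ERR motif CAAGGTCA was in 3 members (3.13%, against 1.19%) and the ETS motif CCGGAAG in 11 (11.5%, against 8.65%). The MEF2 pattern was in 3 (3.13%, against 3.09%), CAGCTG in 10 (10.4%, against 12.2%) and the YY1 motif AAGATGGCG in 0 (0%, against 0.725%). No searched motif overlapped another in the 6 windows shown. A match is a description of letters, not a site of binding.

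Library totals lay between 18369905 and 72991481 counted reads, and no 2 libraries of a group had identical counts. Hoxa5 itself was at 9.84 to 112 TPM (the authors' transcript level, scaled for gene length and to the same total in every library) in Hoxa5-/- libraries and lower than in every wt library of the same tissue in all 7 contexts. The tissues carried their markers, with all 8 brown adipocyte markers at 1 TPM or more in iBAT and all 12 skeletal muscle markers in the diaphragm. The libraries that stood apart included the following. Lung E15.5 Hoxa5-/- replicate 4 had 30.7% of its TPM in ribosomal RNA genes against 0.717 to 0.771% in the rest of its group. Lung E12.5 Hoxa5-/- replicate 1 was rich in erythroid markers, trachea Hoxa5-/- replicate 3 in skeletal muscle and cartilage markers, and somites E10.5 wt replicate 3 lay near the Hoxa5-/- libraries in its member levels. In the diaphragm, lung epithelium markers summed to 500.1 TPM in wt replicate 3 (5.19 to 38.5 in the other wt libraries) and cartilage markers to 366 TPM in Hoxa5-/- replicate 3 (15.1 to 22.4 in the rest of its group). P-values measure only the spread between the samples of a group.

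In wt tissue the 87 members that are subunits, with the 9 assembly factors left out, together made up between 1.68% (somites at E12.5) and 2.28% (diaphragm) of all TPM outside iBAT and 10.1% in iBAT. The median of the 96 members was 130 TPM in lung at E12.5, 170 TPM in the diaphragm and 717 TPM in iBAT. Members at 500 TPM or more numbered 5 to 10 in the first 6 contexts and 59 in iBAT. Of the 96 members, 91 had a mean of at least 1 TPM in all 14 groups. The testis isoform Cox8c and the copy Ndufb11b stayed under 1 TPM in every group mean, with 17 and 11 reads over the 57 libraries. Cox8c reached 2.05 TPM in somites E10.5 Hoxa5-/- replicate 2 and was at 0 in the iBAT libraries.

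Complex I subunits summed to 4666 TPM in lung at E12.5, 5286 in somites at E10.5, 5744 in the diaphragm and 27556 in iBAT, as means of wt libraries. For complex II the same tissues held 832, 787, 1095 and 5539 TPM, and for complex III 2021, 1975, 2946 and 14186. Complex IV summed to 4331 ± 126 TPM (SD, n = 4) in somites at E12.5 and 35676 ± 1943 TPM (n = 5) in iBAT, and complex V to 5109 ± 33.1 and 18324 ± 674 TPM. The complexes thus took different parts of the chain's messenger RNA in iBAT. Complex IV took 35.2 ± 0.812% of the summed TPM of these subunits in wt iBAT (34.0 to 36.1%) and 25.8 ± 0.507% in wt somites at E12.5 (25.4 to 26.5%). Complex V took 18.1 ± 0.403% (17.7 to 18.6%) against 30.4 ± 0.270% (30.1 to 30.7%). The libraries of both tissues did not overlap in either share. The complex IV sum includes the isoforms Cox8b and Cox7a1, with means of 5042 and 3142 TPM in wt iBAT and 13.2 and 3.80 TPM in wt somites at E12.5. In Hoxa5-/- libraries the shares were 35.4 ± 1.59% and 17.9 ± 0.617% in iBAT and 25.8 ± 0.306% and 30.4 ± 0.458% in somites at E12.5. In trachea, lung and diaphragm, complex IV took between 24.5% and 27.6% and complex V between 27.96% and 31.2%, as wt means.

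**Figure D1:**
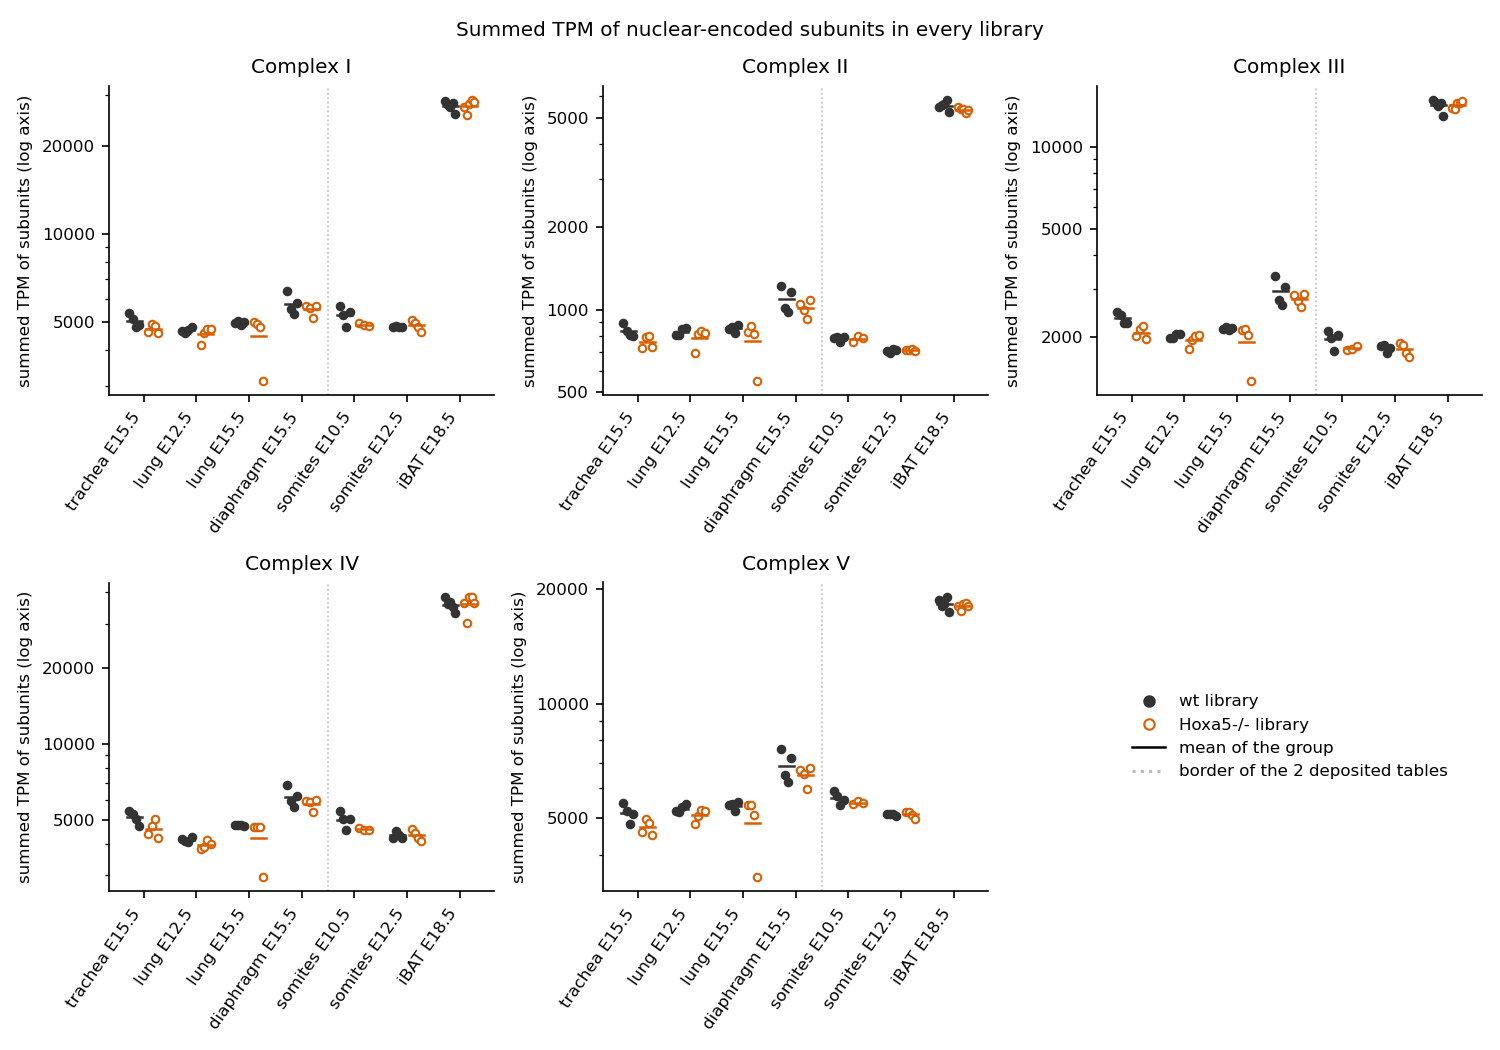
Summed TPM of the subunits of each complex in every library, on log axes, for the 7 contexts, with wt libraries as filled and Hoxa5-/- libraries as open points and bars for group means. The iBAT libraries lie above all others in each complex, and lung E15.5 Hoxa5-/- replicate 4 lies below its group, for example at 3125 TPM for complex I.

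The most abundant member of each complex was identified in the wt means. Sdhd, a membrane anchor of succinate dehydrogenase, led complex II in all 7 contexts, from 239.8 ± 2.97 TPM in somites at E12.5 to 2107 ± 102 TPM in iBAT. In complex I the X-linked accessory subunit Ndufb11 led in trachea (362 ± 13.8 TPM), lung at E15.5 (403 ± 16.2) and both somite stages (374 ± 26.7 and 344 ± 4.60). Ndufa2 led in lung at E12.5 (317 ± 3.94 TPM) and Ndufc2 in iBAT (2187 ± 74.9). Complex III was led by its small subunits, Uqcr10 in trachea and lung at E15.5 (453 and 428 TPM), Uqcrh in lung at E12.5 and somites (366, 335 and 301) and Uqcr11 in diaphragm and iBAT (535 and 2284). Cox8a, the common form of subunit 8, led complex IV in 5 contexts at 768 to 1135 TPM, Cox6a1 in somites at E10.5 (867) and the isoform Cox8b in iBAT (5042 ± 299.8). In complex V subunits of the F1 part led, Atp5a1 in 5 contexts (1042 to 1408 TPM) and Atp5b in somites at E10.5 (1071) and iBAT (4075). Neighbouring leaders often lay within the spread of their libraries, as for Cox8a and Cox6a1 in somites at E12.5 (768 ± 21.8 and 765 ± 51.5 TPM).

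Within the set of trachea, lung and diaphragm the members were even. Between the lowest and the highest of these 4 wt means, 85 of 96 members differed by less than 2-fold, with a median of 1.33-fold, and Ndufb3 by 1.04-fold. Within somites and iBAT the median was 5.67-fold and 7 members stayed under 2-fold, among them Atp5j (1.17-fold) and Atp5g3 (1.34-fold). Levels were not tested across the tables, and ranges over all contexts are a description only. Between the tables, 2 members differed by more than 3-fold between their closest wt means. Ndufs5 lay between 2.53 and 4.13 TPM in the wt means of trachea, lung and diaphragm and between 37.5 and 40.4 in those of somites, and Atp5l between 6.40 and 8.61 and between 25.8 and 27.2. The lowest somite mean was 9.08-fold and 3.001-fold above the highest mean of the other set. Read layout, centre and tissue cannot be told apart in these differences.

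The comparison of iBAT at E18.5 with somites at E12.5, which hold progenitors of brown fat among other cells, gave the largest median change of the 6 context comparisons. iBAT was sampled only at E18.5 and somites no later than E12.5, so tissue and stage cannot be told apart in any of these differences. In wt, 91 of the 93 members tested were called higher in iBAT and 1 lower, against 31% and 35.3% of all 19369 genes tested (edgeR, adjusted p under 0.05 and at least 1.5-fold). The median log2 fold change of the members was 3.69, against -0.16 for all genes tested. In Hoxa5-/- embryos, 91 members were called higher and 0 lower (all genes 31.9% and 33.8%), with a median of 3.81, and 91 were called higher in both genotypes. The fold changes depend on scaling, and mitochondrial DNA genes took 21.9 to 26.3% of the TPM of wt iBAT libraries. With library totals alone the members' median was 3.04 and that of all genes -0.80, with 88 called higher and 1 lower. The share of all genes called with library totals alone is not given, here or below, so such counts have no background. As a plain ratio of mean TPM the median was 2.48. All 8 brown adipocyte markers were called higher in iBAT too, and their summed TPM was 13898 to 20515 in wt iBAT, against a median of 14.7 in wt somites at E12.5.

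By role, the 37 complex I subunits tested were all called higher in iBAT, with a median log2 fold change of 3.75 and a range from 2.11 to 4.57. Ndufc2, an accessory subunit of the membrane arm, was at 2289, 2242, 2142, 2145 and 2115 TPM in iBAT and at 309, 323, 317 and 321 TPM in somites (log2 fold change 3.9952, SE 0.09, adjusted p = 1.25e-14). All iBAT libraries were far above all somite libraries. The 7 core subunits, which carry the electron path, and the 30 accessory subunits had nearly equal medians (3.75 and 3.72). The 4 complex II subunits had a median of 4.15 and the 8 complex III subunits of 4.27. Uqcrq, a small subunit of complex III, was at 1458, 1367, 1406, 1381 and 1244 TPM in iBAT and 137, 138, 131 and 124 TPM in somites, without overlap (log2 fold change 4.59, SE 0.11, adjusted p = 1.64e-14). The 11 common complex IV subunits lay between 3.64 and 4.58, with a median of 3.90. For Sdhd, the 5 iBAT libraries held 2047, 2196, 2125, 2202 and 1964 TPM and the somite libraries 237, 244, 238 and 241 TPM (log2 fold change 4.35, SE 0.11, adjusted p = 2.57e-14). These groups were again fully apart.

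Complex V had the lowest median of the 5 complexes. Of its 17 members 16 were called higher and 1 lower, with a median of 3.10. The 5 F1 subunits had a median of 2.998, the 5 membrane subunits of 3.63, the 4 stalk subunits of 3.09 and the 3 genes of the c-ring of 0.98. The catalytic subunit Atp5b was at 3997, 3912, 4106, 4394 and 3967 TPM in iBAT and at 849, 861, 878 and 874 in somites, with no overlap (log2 fold change 3.45, SE 0.11, adjusted p = 3.26e-13). Stalk subunit Atp5j was at 136, 120.2, 118, 117 and 122 TPM against 132, 132, 124 and 125 TPM, with overlapping libraries. Its log2 fold change was 1.14 after TMM scaling, 0.49 with library totals and -0.07 as a ratio of mean TPM, so its direction depends on the scale.

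Among the c-ring genes, Atp5g1, Atp5g2 and Atp5g3 encode the same mature protein, subunit c of the proton-driven rotor. Atp5g1 was at 21.8, 13.4, 14.8, 18.2 and 18.05 TPM in wt iBAT and at 69.3, 71.5, 69.3 and 62.4 TPM in wt somites at E12.5. Every iBAT library was below every somite library, and Atp5g1 was the member called lower (log2 fold change -0.78, SE 0.10, adjusted p = 2.91e-06). It kept this sign with library totals (-1.42) and as a TPM ratio (-1.98), but in Hoxa5-/- embryos its log2 fold change of -0.51 was under the 1.5-fold limit. Atp5g2 was at 299.9, 273, 279, 276 and 263 TPM against 211, 212, 234 and 218, higher in every iBAT library (log2 fold change 1.56, SE 0.08, adjusted p = 4.80e-11). Atp5g3 was at 354, 319, 326, 347 and 318 TPM against 398, 399, 389 and 381, lower in every iBAT library in TPM and called higher after TMM (log2 fold change 0.98, SE 0.07, adjusted p = 7.64e-09), so its direction also turns with the scale (0.33 with library totals, -0.23 as a TPM ratio). The 3 values lie between -0.78 and 1.56 and those of the 5 F1 subunits between 2.36 and 3.62 on the same scale.

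The 9 assembly factors, Ndufaf1 to Ndufaf8 and the complex III and IV assembly protein Cox7a2l, were all called higher in iBAT, with a median of 2.45. Ndufaf2 was lowest, at 24.3, 22.98, 20.9, 22.4 and 22.4 TPM in iBAT (log2 fold change 0.95, SE 0.08, adjusted p = 2.75e-08), a direction that turned as a ratio of mean TPM (-0.26). Cox5b-ps, a copy of the complex IV gene Cox5b, was at 123, 100.3, 103, 125 and 108 TPM in iBAT and 3.46, 4.27, 3.13 and 2.75 in somites (log2 fold change 6.22, SE 0.16, adjusted p = 3.22e-14), while Cox5b itself was at 1659.8 ± 86.5 and 235 ± 11.3 TPM (log2 fold change 4.03, SE 0.10, adjusted p = 3.38e-14). Reads of such near-identical copies may be shared in the counting, so the level of the copy is uncertain.

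The isoform pairs of complex IV moved apart in iBAT. Cox7a1, the muscle and brown fat form of subunit 7a, was at 3458, 3211, 3352, 3130.3 and 2561 TPM in wt iBAT and at 2.47, 5.21, 2.91 and 4.59 TPM in wt somites at E12.5. No library of one tissue came near the other (log2 fold change 10.89, SE 0.22, adjusted p = 4.99e-15). Its common partner Cox7a2 was at 1483, 1418, 1448, 1265 and 1197 TPM and 257, 247, 237 and 220.2 TPM (log2 fold change 3.72, SE 0.11, adjusted p = 1.62e-13). Cox7a1 thus made up 69.7 ± 1.11% of the pair's TPM in wt iBAT and 1.57% in wt somites at E12.5. Cox8b was at 5200.1, 5133, 5389, 4865 and 4624 TPM in wt iBAT and 12.1, 14.4, 12.6 and 13.7 in somites (log2 fold change 9.79, SE 0.14, adjusted p = 4.85e-16), or 50.5 ± 1.72% and 1.69 ± 0.0922% of the Cox8a and Cox8b sum. The libraries did not overlap for either share. Cox8a had the smaller change (log2 fold change 3.90, SE 0.09, adjusted p = 2.00e-14).

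Cox6a2, the heart and skeletal muscle form of subunit 6a, did not follow them. It was at 33.6, 17.8, 11.3, 11.2 and 22.9 TPM in wt iBAT and 38.9, 51.7, 26.8 and 20.7 in wt somites at E12.5, with overlapping libraries and no call (log2 fold change 0.36, SE 0.30, adjusted p = 0.280), and its sign turned with library totals (-0.28) and as a TPM ratio (-0.83). Its share of the Cox6a1 and Cox6a2 sum was 0.387% in iBAT and 4.28 ± 1.52% in somites. The skeletal muscle markers summed to 620 to 2664 TPM in wt iBAT and 2997 to 4626 TPM in wt somites at E12.5. Cox4i2, the lung and low-oxygen form of subunit 4, was at 15.47, 13.3, 13.1, 13.9 and 14.2 TPM in iBAT and 13.4, 11.1, 9.34 and 7.97 TPM in somites, with overlap (log2 fold change 1.63, SE 0.17, adjusted p = 3.19e-07). Its share of the subunit 4 pair was 0.438 ± 0.0118% in iBAT and 1.73% in somites, and Cox4i1 itself was higher in iBAT (log2 fold change 3.64, SE 0.09, adjusted p = 3.46e-14). Ndufa4l2 and Ndufa4 had log2 fold changes of 3.17 and 3.79.

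**Figure D2:**
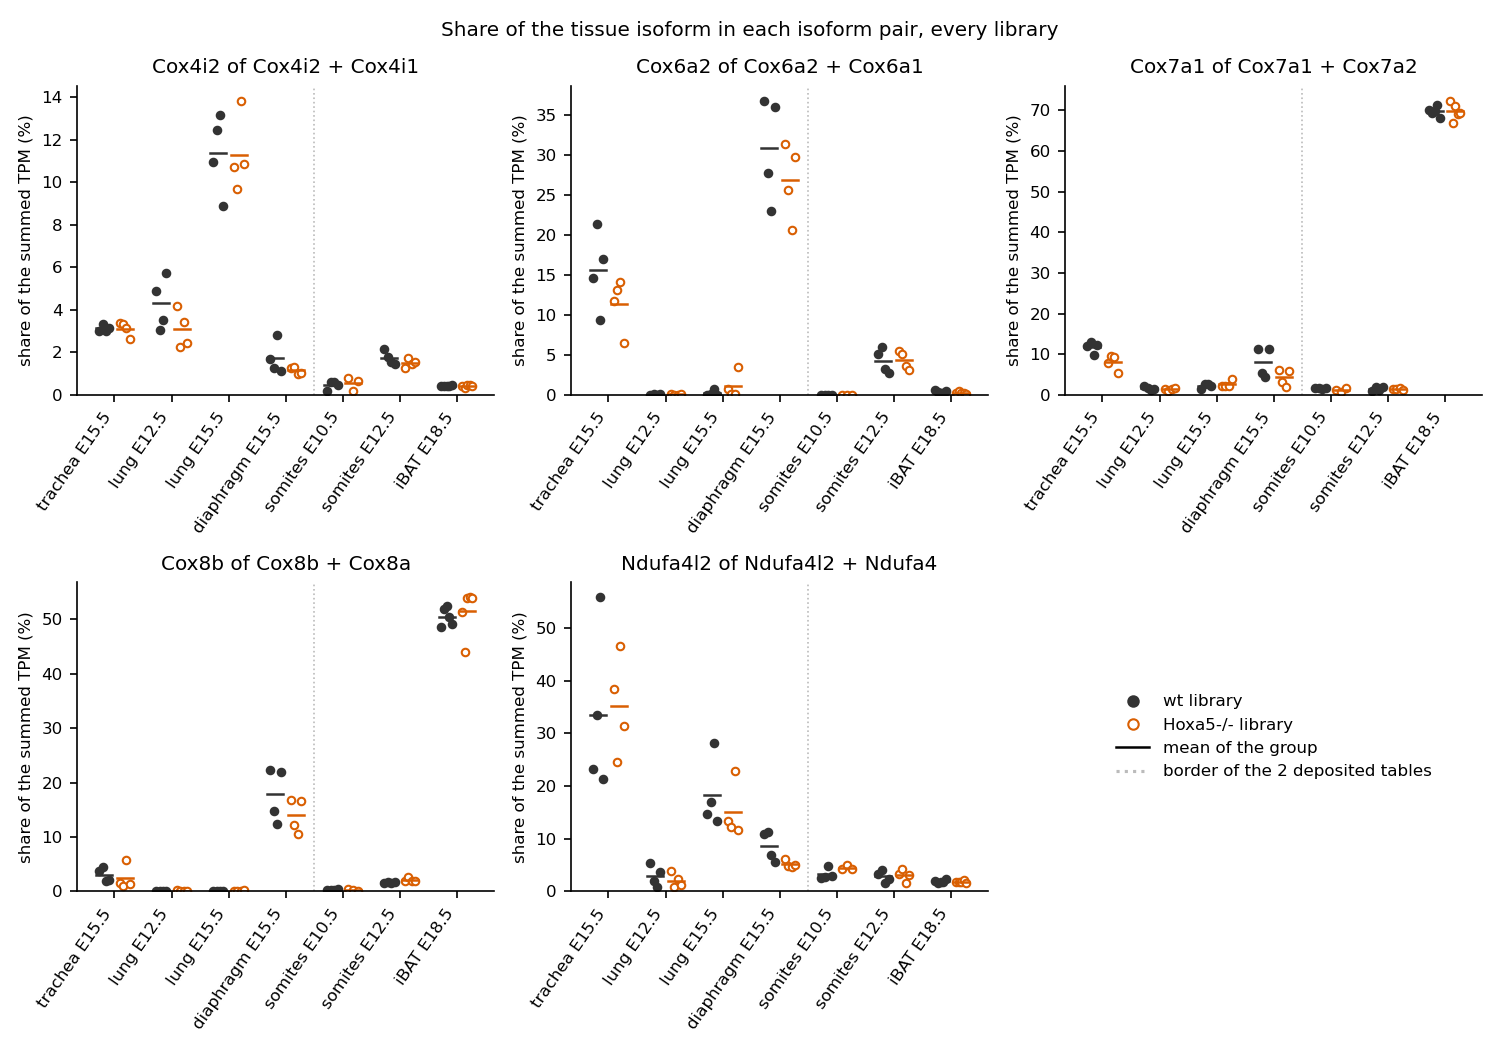
Share of the tissue isoform in the summed TPM of each of 5 isoform pairs (percent, linear axes) in every library of the 7 contexts, filled points for wt, open points for Hoxa5-/- and bars for group means. Cox7a1 and Cox8b are highest in iBAT (wt means 69.7% and 50.5%), Cox6a2 in the diaphragm (30.9%), Cox4i2 in lung at E15.5 (11.4%) and Ndufa4l2 in trachea (33.5%).

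The isoform ratios were tested within libraries, as the log2 ratio of TPM with 0.1 added, by an exact two-sided permutation test over libraries. Between wt contexts, 22 of 30 ratios passed an adjusted p of 0.05, each at adjusted p = 0.0390, and 0.0286 is the smallest p that 4 against 4 libraries can give (0.00794 for 5 against 4). From somites at E12.5 to iBAT the Cox7a1 to Cox7a2 ratio differed by 7.21, Cox8b to Cox8a by 5.88, Cox6a2 to Cox6a1 by -3.57 and Cox4i2 to Cox4i1 by -1.99 (log2). The Cox4i2 ratio passed in all 6 comparisons, the Cox6a2 and Cox8b ratios in 5 and the Cox7a1 and Ndufa4l2 ratios in 3 each. Across the 7 wt contexts the Cox7a1 share ran from iBAT (69.7%) over trachea (11.7 ± 1.36%) and diaphragm (8.18 ± 3.67%) to lung at E15.5 (2.23%), lung at E12.5 and both somite stages (1.57 to 1.64%). Trachea and diaphragm did not differ in the Cox7a1 ratio beyond their spread (exact adjusted p = 0.198). Nor did the lung stages (0.222) or the somite stages (0.80).

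Between the diaphragm, which is mostly skeletal muscle, and lung at E15.5, 46 of 93 members were called higher in the diaphragm and 1 lower, against 20.9% and 15.6% of all genes tested. The members' median log2 fold change was 0.58 and that of all genes -0.01. With library totals alone the members' median was 0.33 against -0.25 for all genes, with 18 called higher and 3 lower, so the size of this count rests on the scaling. Whether 18 lies above the share of all genes called with library totals is not shown. Complex III had the largest part, with 7 of 8 members called higher (median 0.79). Of the complex I core subunits 6 of 7 were called, of its accessory subunits 10 of 30, of complex II 2 of 4, of complex V 10 of 17 and of the assembly factors 1 of 9. Uqcr11, a small complex III subunit, was at 627, 509, 477 and 527 TPM in wt diaphragm and 338, 338, 334 and 332 TPM in wt lung (log2 fold change 0.99, SE 0.10, adjusted p = 3.91e-05). Its groups did not overlap. In Hoxa5-/- embryos 39 members were called higher and 2 lower (all genes 19.5% and 16.7%), and 34 were called higher in both genotypes.

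The largest differences were again isoforms. Cox8b was at 339.8, 204, 157 and 297 TPM in wt diaphragm and at 0.234, 0.261, 0.332 and 0.359 TPM in wt lung at E15.5, where each library held 1 read of it (log2 fold change 9.88, SE 0.45, adjusted p = 2.18e-07). As shares of library totals the reads had a ratio of 901 (exact 95% interval 352 to 3310, counting error only). Cox6a2 was at 456, 289, 225 and 384 TPM in the diaphragm and at 0.371, 0.829, 5.62 and 0.381 TPM in lung, where the groups hold 7469 and 43 reads (log2 fold change 7.96, SE 0.61, adjusted p = 5.59e-06). All diaphragm libraries were above all lung libraries for both genes. Cox7a1 was at 52.8, 20.7, 16.2 and 47.8 TPM against 4.40, 8.60, 9.15 and 6.77 TPM, also without overlap (log2 fold change 2.58, SE 0.45, adjusted p = 0.000937). The 12 skeletal muscle markers summed to 21593 to 44485 TPM in wt diaphragm and to 24.4 to 40.4 TPM in wt lung. The 4 hepatocyte markers summed to 1500.3 to 8480.5 TPM in wt diaphragm, against 4.14 to 41.8 TPM in wt lung at E15.5 and 7.0007 to 50.6 TPM in wt trachea, and each was at 1 TPM or more in the diaphragm. The part of hepatocytes in the members' levels was not tested. The highest sum was in wt replicate 3, which also had lung epithelium markers at 500.1 TPM (median of its group 31.2). Without it 55 members were called higher and 2 lower against lung, and 56 and 2 against trachea. The share of all genes called without it is not given here, so these counts have no background. Cox4i2 was the member called lower in the diaphragm, at 12.3, 8.03, 17.2 and 7.43 TPM against 68.03, 80.8, 89.9 and 53.9 TPM (log2 fold change -2.40, SE 0.28, adjusted p = 8.06e-05).

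Against trachea, 38 of 93 members were called higher in the diaphragm and 2 lower, where 14.1% and 18.4% of all genes tested were called. The median was 0.53 (all genes -0.04), and 0.30 with library totals alone, where all genes had -0.26 and 11 members were called higher and 3 lower. For these 11 and 3, too, the share of all genes is not given. Between the same tissues in Hoxa5-/- embryos 47 were called higher and 4 lower (all genes 15.6% and 20.2%). Cox8b (log2 fold change 3.44, SE 0.40, adjusted p = 0.000144) and Cox6a2 (log2 fold change 1.57, SE 0.32, adjusted p = 0.00325) led, followed by the c-ring gene Atp5g3 and the stalk subunit Atp5pb. Atp5g3 was at 729, 591, 540.2 and 664 TPM in the diaphragm and at 419, 389, 359.8 and 379 TPM in trachea, without overlap (log2 fold change 1.01, SE 0.12, adjusted p = 0.000165). For Atp5pb the means were 244 ± 30.2 and 159.6 ± 6.75 TPM (n = 4 each, log2 fold change 0.92, SE 0.11, adjusted p = 0.000188). Cox6b2, known as the testis form of subunit 6b, was lower in every diaphragm library, at 18.4, 17.1, 27.8 and 12.8 TPM against 61.2, 64.2, 73.9 and 44.5 (log2 fold change -1.39, SE 0.24, adjusted p = 0.00137). Ndufa4l2 was lower as well, at 50.3, 44.6, 25.8 and 23.5 TPM against 105, 181, 389 and 89.4 (log2 fold change -2.12, SE 0.50, adjusted p = 0.00655). Small rises near 0 turned sign with scale, for 9 members against trachea and 8 against lung.

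**Figure D3:**
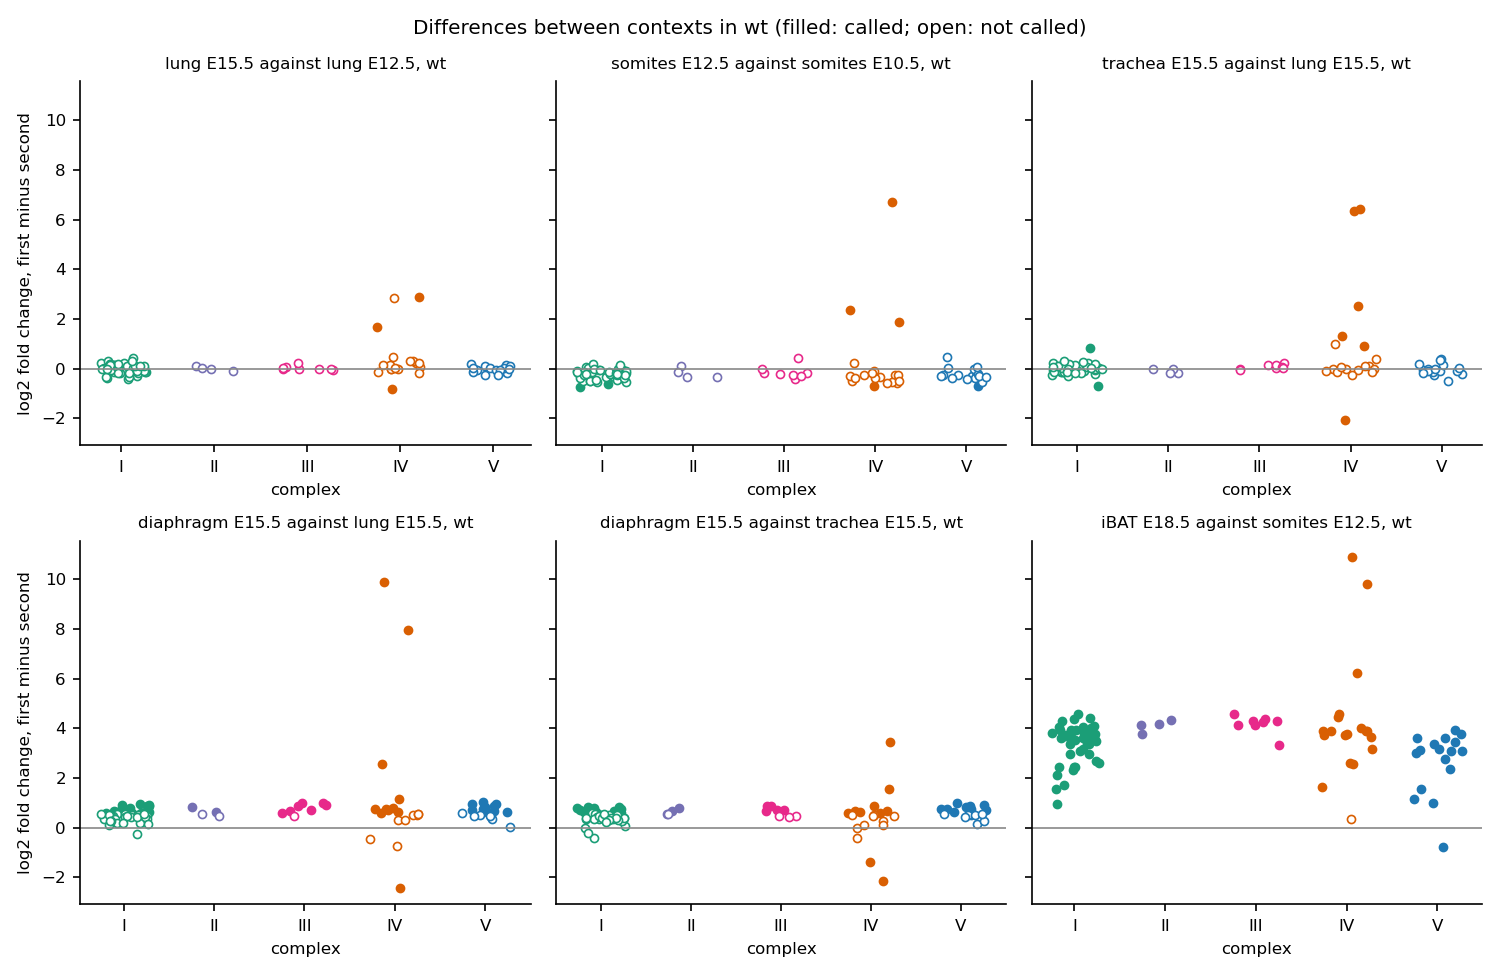
Log2 fold changes (first minus second tissue, TMM scaling) of every member tested in 6 wt comparisons, by complex, with filled points for called and open points for other members. Most members lie near 0 in lung, somite and trachea comparisons, 46 of 93 and 38 of 93 are called higher in the diaphragm (18 and 11 with library totals alone), and 91 of 93 are called higher in iBAT, where Atp5g1 is the point below 0.

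Trachea and lung at E15.5 differed in few members, with 6 of 93 called higher in trachea and 2 lower against 20.1% and 10.1% of all genes tested. Of these 8, 6 were tissue isoforms of complex IV. Cox8b was at 37.4, 42.2, 17.7 and 16.8 TPM in wt trachea, from 36 to 125 reads a library, and under 0.4 TPM in each wt lung library (log2 fold change 6.41, SE 0.50, adjusted p = 1.16e-05). The ratio of read shares was 97.7 (exact 95% interval 37.8 to 361). Cox6a2 was at 146, 204, 77.1 and 139.8 TPM in trachea (log2 fold change 6.33, SE 0.73, adjusted p = 0.000113) and Cox7a1 at 44.05, 48.9, 36.03 and 43.9 TPM (log2 fold change 2.54, SE 0.24, adjusted p = 3.45e-05). For all 3 the wt trachea libraries lay above the wt lung libraries. Beside them, the 7 cardiac muscle markers summed to 3276 to 5782 TPM in wt trachea and 65.0 to 236 TPM in wt lung, each was at 1 TPM or more in trachea, and all 7 were called higher there. Skeletal muscle markers were higher in trachea as well, with sums of 180 to 1370.5 TPM against 24.4 to 40.4 TPM in wt lung. Brown adipocyte markers summed to 43.5 to 60.5 TPM against 11.2 to 13.3 TPM. The part of cardiac muscle, skeletal muscle or brown adipocytes in these isoform levels was not tested.

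Other isoforms had their own pattern. Cox4i2 was at 18.8, 19.6, 16.8 and 17.5 TPM in wt trachea and at 68.03, 80.8, 89.9 and 53.9 TPM in wt lung (log2 fold change -2.04, SE 0.17, adjusted p = 1.64e-05), and every trachea library was lower. Ndufa4l2, a paralogue known to rise at low oxygen, was highest in trachea, at 105, 181, 389 and 89.4 TPM against 58.3, 70.5, 120.2 and 49.05 in lung, with overlap (log2 fold change 1.33, SE 0.48, adjusted p = 0.0429). Its wt trachea libraries were spread widely, with a mean of 191 and an SD of 138 TPM. Cox6b2 was at 61.2, 64.2, 73.9 and 44.5 TPM against 27.6, 29.7, 42.6 and 28.1 TPM, higher in each trachea library (log2 fold change 0.90, SE 0.19, adjusted p = 0.00415). Among the assembly factors Ndufaf3 was higher in trachea (log2 fold change 0.84, SE 0.20, adjusted p = 0.00648) and Ndufaf2 lower (log2 fold change -0.68, SE 0.12, adjusted p = 0.00128). All subunits of complexes II, III and V and of complex I stayed uncalled between trachea and lung.

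**Figure D4:**
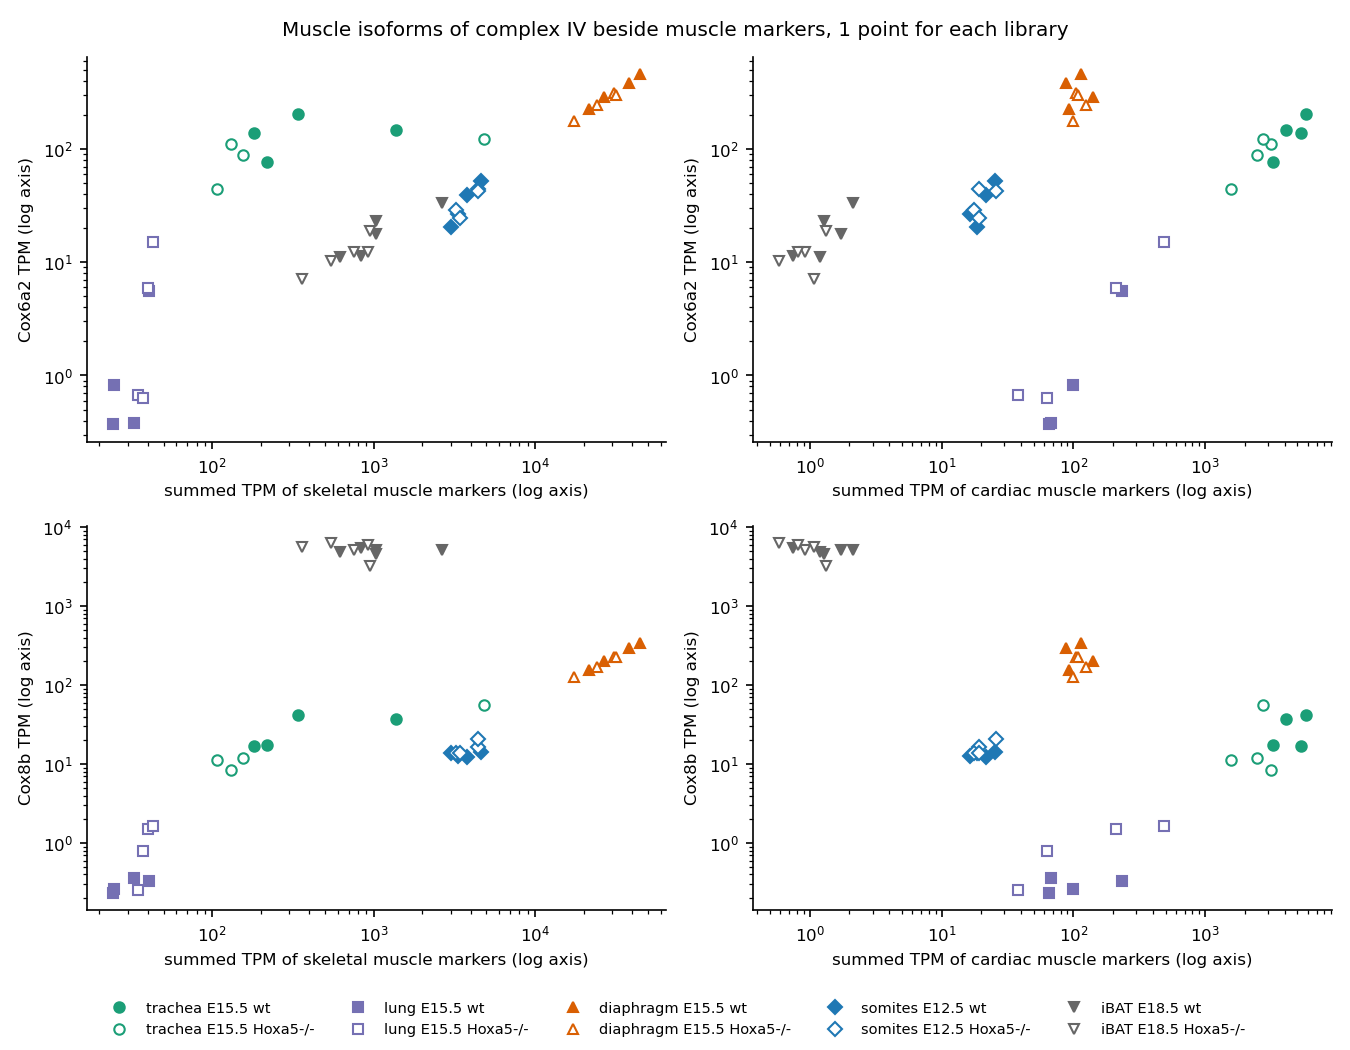
Cox6a2 (top) and Cox8b (bottom) TPM of each library against the summed TPM of 12 skeletal (left) and 7 cardiac (right) muscle markers, all on log axes, for 5 contexts with filled wt and open Hoxa5-/- points. Diaphragm libraries have high skeletal and low cardiac marker sums, trachea libraries the highest cardiac sums, and iBAT libraries the highest Cox8b at skeletal marker sums of 360 to 2664 TPM.

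From E12.5 to E15.5 the lung changed little in these genes. Of 92 members 2 were called higher at E15.5 and 1 lower, against 15.4% and 9.15% of all genes tested, and the median was 0.01. Ndufa4l2 was at 17.2, 6.32, 3.005 and 13.004 TPM at E12.5 and 58.3, 70.5, 120.2 and 49.05 TPM at E15.5 (log2 fold change 2.87, SE 0.45, adjusted p = 0.000487), and Cox4i2 at 26.2, 15.52, 17.9 and 29.8 TPM and 68.03, 80.8, 89.9 and 53.9 TPM (log2 fold change 1.68, SE 0.22, adjusted p = 0.000151). Both were higher in each library at E15.5, and both were also called in Hoxa5-/- lungs. The copy Cox5b-ps was called lower with overlapping libraries, at 6.19, 5.45, 3.97 and 6.68 TPM and then 2.88, 4.16, 2.88 and 3.12 TPM (log2 fold change -0.80, SE 0.25, adjusted p = 0.0212), and in Hoxa5-/- lungs its log2 fold change was 0.01. The share of Cox4i2 in the subunit 4 pair grew from 4.31 ± 1.24% to 11.4 ± 1.90% in wt lung.

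From E10.5 to E12.5 most members were slightly lower in wt somites, with a median log2 fold change of -0.24 (all genes -0.04). In Hoxa5-/- somites the members' median was -0.03. Of 93 members 3 were called higher at E12.5 and 4 lower, against 24.1% and 18.4% of all genes tested. All 3 that rose were tissue isoforms. Cox6a2 was at 0.370, 0.370, 0.400 and 0 TPM at E10.5, from 0 to 2 reads a library, and at 38.9, 51.7, 26.8 and 20.7 TPM at E12.5 (log2 fold change 6.70, SE 0.46, adjusted p = 2.94e-08). The ratio of read shares was 109.7 (exact 95% interval 50.1 to 299.9). Cox8b was at 2.79, 1.75, 1.51 and 3.69 TPM and then 12.1, 14.4, 12.6 and 13.7 TPM (log2 fold change 2.36, SE 0.31, adjusted p = 1.74e-05), and Cox4i2 at 1.12, 3.67, 3.28 and 2.62 TPM and then 13.4, 11.1, 9.34 and 7.97 TPM (log2 fold change 1.90, SE 0.30, adjusted p = 8.37e-05). Each library at E12.5 was above each library at E10.5 for all 3. The skeletal muscle markers summed to 248 to 439 TPM in wt somites at E10.5 and 2997 to 4626 TPM at E12.5, and their part in these levels was not tested. Cox7a1 was not called (5.40 ± 1.16 and 3.80 ± 1.31 TPM, log2 fold change -0.58, SE 0.33, adjusted p = 0.139).

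The members called lower at E12.5 were Ndufaf4 (log2 fold change -0.72, SE 0.11, adjusted p = 6.52e-05), Cox5a, Atp5g2 and Ndufa12. Cox5a, a common complex IV subunit, was at 120.1, 123, 112 and 116 TPM at E10.5 and 75.1, 79.5, 75.5 and 74.1 TPM at E12.5 (log2 fold change -0.70, SE 0.08, adjusted p = 4.94e-06). Atp5g2 was at 369, 345, 296 and 335 TPM and 211, 212, 234 and 218 TPM (log2 fold change -0.69, SE 0.10, adjusted p = 2.74e-05), and the complex I subunit Ndufa12 at 210.4, 211, 189 and 196 TPM and 133, 138, 135 and 141 TPM (log2 fold change -0.63, SE 0.08, adjusted p = 1.64e-05). The stages did not overlap for these genes. Without the 1.5-fold limit 50 members passed the adjusted p, as did 63.3% of all genes. In Hoxa5-/- somites 3 were called higher and 0 lower (all genes 22.2% and 14.7%), and without somites E10.5 wt replicate 3 the count of 7 wt calls became 14. Among roles, the 11 common complex IV subunits had a median of -0.35 and the 5 F1 subunits of 0.02.

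Between genotypes, 0 of 91 to 94 members tested were called by edgeR in any of the 7 contexts, where 0.0156% (trachea), 0.0798% (lung at E12.5), 0.124% (lung at E15.5), 0.594% (diaphragm), 0.0215% (somites at E10.5), 0.00529% (somites at E12.5) and 0.00657% (iBAT) of all genes tested were called. DESeq2 called 1 member, Ndufa4l2 in the diaphragm, and 0 elsewhere. The members' median log2 fold changes (Hoxa5-/- minus wt) were -0.12 in trachea, -0.04 in the earlier and -0.06 in the later lung, -0.07 in the diaphragm, -0.20 in the earlier and 0.02 in the later somites and 0.05 in iBAT. Median standard errors lay between 0.057 and 0.114. For 82 to 92 members per context the estimate with 2 standard errors on either side stayed inside 1.5-fold. For those members the range held no change of that size, and whether a 1.5-fold change would have been called was not tested.

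**Figure D5:**
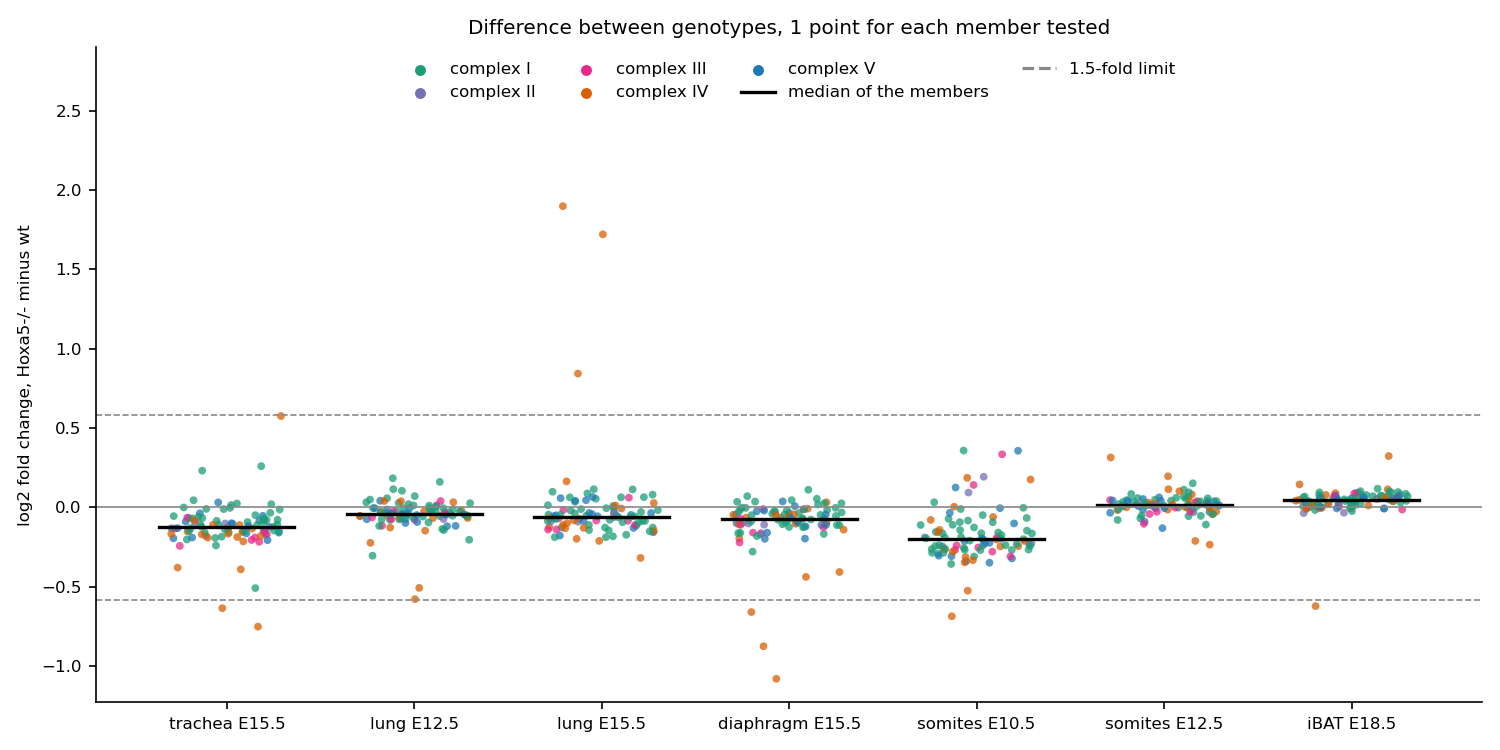
Log2 fold changes between genotypes (Hoxa5-/- minus wt, TMM scaling) for every member tested in the 7 contexts, coloured by complex, with bars at the median of the members and dashed lines at the 1.5-fold limit. None of the points is a call by edgeR, the medians lie between -0.20 and 0.05, and most points outside the dashed lines are tissue isoforms of complex IV.

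In trachea 86 of 94 members were lower in Hoxa5-/- embryos, where 50.6% of all genes were higher, and 28 had an unadjusted p under 0.05, all of them lower, against 6.70% of all genes tested (3.64% lower). The groups did not overlap for 13 members, against 3.74% of all genes. The count of 28 fell to 10 without Hoxa5-/- replicate 1 or 4 or wt replicate 2 and to 14 without wt replicate 1, and the median stayed between -0.14 and -0.09 without any 1 library. The smallest p was that of the stalk subunit Atp5j, at 154, 146, 145 and 155 TPM in wt and 135, 135, 129 and 128 TPM in Hoxa5-/- libraries. Every Hoxa5-/- library was below every wt library (log2 fold change -0.19, SE 0.05, adjusted p = 0.602). DESeq2 gave it an adjusted p of 0.00735 at a fold change under the limit. Uqcr10 was at 478, 453, 439.7 and 439.6 TPM in wt and 372, 379, 419 and 369 TPM in Hoxa5-/-, also apart (log2 fold change -0.24, SE 0.06, adjusted p = 0.602). Cox7a1 had the lowest fold change of the members, at 44.05, 48.9, 36.03 and 43.9 TPM in wt and 23.6, 32.4, 30.3 and 16.9 TPM in Hoxa5-/-, without overlap and without a call (log2 fold change -0.75, SE 0.22, adjusted p = 0.671). The cardiac markers in the same libraries summed to 3276 to 5782 TPM in wt and 1581 to 3178 TPM in Hoxa5-/-, with a median log2 fold change of -0.88 and 0 called. Skeletal muscle markers summed to 180 to 1370.5 TPM in wt (median 279) and 107 to 4822 TPM in Hoxa5-/- (median 143). Brown adipocyte markers summed to 43.5 to 60.5 TPM in wt and 25.7 to 54.9 TPM in Hoxa5-/-. The part of these markers in the lower members was not tested.

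In lung the genotypes were closer. At E12.5 1 of 91 members had an unadjusted p under 0.05 (8.01% of all genes), Atp5g3, at 398, 414, 413 and 418 TPM in wt and 351, 377, 388 and 389 TPM in Hoxa5-/- libraries (log2 fold change -0.12, SE 0.05, adjusted p = 0.591), and it was also the member whose groups did not overlap (background 4.09%). At E15.5 14 of 93 did, 12 of them lower in Hoxa5-/-, against 6.32% of all genes, and 11 had groups that did not overlap (2.96%). Without replicate 4, the Hoxa5-/- library rich in ribosomal RNA, the 14 became 3, and without any other single library it was between 5 and 14. The smallest p was that of Cox4i1, at 552, 567, 592 and 554 TPM in wt and 520.0, 506, 525 and 317 TPM in Hoxa5-/- (log2 fold change -0.20, SE 0.05, adjusted p = 0.398), where the groups did not overlap and replicate 4 was lowest. Cox6a2 and Cox8b were higher in Hoxa5-/- lungs by estimates with wide errors. Cox6a2 was at 0.371, 0.829, 5.62 and 0.381 TPM in wt and 5.87, 0.667, 0.631 and 15.04 TPM in Hoxa5-/- (log2 fold change 1.90, SE 1.24, adjusted p = 0.904), and the groups overlapped. The cardiac markers of these lungs summed to 65.0 to 236 TPM in wt and 37.7 to 489 TPM in Hoxa5-/-, and the libraries with the highest sum had the most Cox6a2 in both genotypes. In Hoxa5-/- this was replicate 4, the library rich in ribosomal RNA. The part of cardiac muscle in these levels was not tested.

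In the diaphragm 81 of 93 members were lower in Hoxa5-/- embryos, where 51.2% of all genes were higher, 2 had an unadjusted p under 0.05 (13% of all genes) and 2 had groups without overlap (6.87%). Without wt replicate 1 the median went from -0.07 to 0.0038, so the lower median rests on that library. Without wt replicate 3 the median was -0.11 and 8 members had an unadjusted p under 0.05, and without Hoxa5-/- replicate 3 these were -0.03 and 1. The hepatocyte markers summed to 1500.3 to 8480.5 TPM in wt and 344 to 10444 TPM in Hoxa5-/- diaphragms, and their part in these differences was not tested. Ndufa4l2 was at 50.3, 44.6, 25.8 and 23.5 TPM in wt and 25.1, 18.51, 16.5 and 19.1 TPM in Hoxa5-/- libraries, with overlap (log2 fold change -0.87, SE 0.27, adjusted p = 0.218). DESeq2 called it (adjusted p = 0.0422). Cox7a1 was at 52.8, 20.7, 16.2 and 47.8 TPM and 23.4, 11.97, 7.38 and 23.3 TPM, overlapping and uncalled (log2 fold change -1.08, SE 0.50, adjusted p = 0.412). Cox6a2 (log2 fold change -0.41, SE 0.26, adjusted p = 0.557) and Cox8b (log2 fold change -0.44, SE 0.29, adjusted p = 0.568) were uncalled. Skeletal muscle markers summed to 21593 to 44485 TPM in wt and 17490 to 31704 TPM in Hoxa5-/- diaphragms.

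In somites at E10.5 27 of 92 members had an unadjusted p under 0.05 and 25 of them were lower in Hoxa5-/- embryos, against 12.7% of all genes (5.23% lower), and 9 had groups without overlap (7.37%). Without any 1 library other than wt replicate 3 the 27 became 5 to 18 with 0 past the adjusted p. Atp5j2, subunit f of the ATP synthase membrane part, was at 167, 155, 136 and 160.0 TPM in wt and 136, 125 and 126 TPM in Hoxa5-/- libraries, where replicate 3 was the lowest wt library and the groups did not overlap (log2 fold change -0.32, SE 0.10, adjusted p = 0.391). Uqcrb was at 331, 309.6, 238 and 319 TPM and 255, 243 and 257 TPM, and here wt replicate 3 was below all Hoxa5-/- libraries. Without it 50 members passed an adjusted p of 0.05, 47 lower and 3 higher, and 0 reached 1.5-fold. Over all genes 15.2% then passed and 2.07% were called. The library was noted for these same levels, so the count without it is a description and supports no difference between genotypes. That library had 1.01% of its TPM in ribosomal RNA genes against 0.277 to 0.444% in the other wt libraries, and its part in this difference was not tested.

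In somites at E12.5 62 of 93 members were higher in Hoxa5-/- embryos (48.9% of all genes), 2 had an unadjusted p under 0.05 (3.24% of all genes) and 2 had groups without overlap (2.51%). Atp5g1 had the smallest p, at 69.3, 71.5, 69.3 and 62.4 TPM in wt and 65.3, 63.6, 57.98 and 61.2 TPM in Hoxa5-/-, with overlap (log2 fold change -0.13, SE 0.05, adjusted p = 0.999). In iBAT 77 of 93 were higher (49.5% of all genes), 2 had an unadjusted p under 0.05 (2.47% of all genes) and 0 had groups without overlap (0.316%). Cox6b2 had the smallest p there, at 70.7, 66.8, 55.1, 64.6 and 63.7 TPM in wt and 94.6, 74.8, 62.6, 85.4 and 72.5 TPM in Hoxa5-/- libraries, with overlap (log2 fold change 0.32, SE 0.10, adjusted p = 0.9999). The brown fat isoforms were uncalled, with Cox7a1 at 3142 ± 349 TPM in wt and 3165 ± 375 TPM in Hoxa5-/- (log2 fold change 0.05, SE 0.12, adjusted p = 0.9999) and Cox8b at 5042 ± 299.8 and 5257 ± 1191 TPM (log2 fold change 0.11, SE 0.16, adjusted p = 0.9999). Cox6a2 was at 33.6, 17.8, 11.3, 11.2 and 22.9 TPM and 12.4, 18.96, 12.2, 10.2 and 7.07 TPM (log2 fold change -0.62, SE 0.29, adjusted p = 0.9999), beside skeletal muscle marker sums of 620 to 2664 and 360 to 949 TPM.

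Isoform ratios were compared between genotypes in the same way. Of 35 ratios, 5 pairs in 7 contexts, 0 passed an adjusted p of 0.05 by the exact permutation test, and 2 had the smallest p that 4 against 4 libraries allow, 0.0286 (adjusted p = 0.50 for both). A single ratio at the smallest p could not pass after adjustment over 35, so the 0 is no sign of stability. They were Cox7a1 to Cox7a2 in trachea (-0.62, Hoxa5-/- minus wt, log2) and Cox8b to Cox8a in somites at E12.5 (0.30), and their groups did not overlap. The share of Cox7a1 in trachea was 11.7 ± 1.36% in wt and 8.08 ± 1.96% in Hoxa5-/- embryos.

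Whether the effect of Hoxa5 differed between contexts was tested as an interaction in edgeR. Between lung stages, diaphragm and lung, diaphragm and trachea, trachea and lung, and somite stages, 0 of 93 or 94 members passed an adjusted p of 0.05, where 0.0267, 0.73, 0.439, 0.00502 and 0.0147% of all genes passed. DESeq2 also gave 0 in each. At an unadjusted p under 0.05 there were 2, 1, 0, 6 and 27 members, beside 5.25, 8.46, 9.07, 5.04 and 14.3% of all genes. For the somite stages, without somites E10.5 wt replicate 3, the count past the adjusted p became 40, with 38 positive and 2 negative, where 12.6% of all genes passed. This too is a description, since that library was noted for its member levels. Cox7a1 had the smallest p between trachea and lung (difference -0.92, SE 0.37, adjusted p = 0.925) and Atp5d between the somite stages (-0.45, SE 0.14, adjusted p = 0.327).

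Other genes of the pathway were counted from lists. From wt somites at E12.5 to iBAT all 12 citric acid cycle genes were called higher (median log2 fold change 4.31, with 31% of all genes called higher), as were 46 of 47 assembly factors outside the name rule (2.15), both tested genes of cytochrome c and c1 (4.83), 10 of 14 regulators of mitochondrial transcription (3 lower, 1.41), 10 of 11 uncoupling proteins and carriers (1 lower, 1.37) and 11 of 14 glycolysis genes (1 lower, 1.58). All 13 subunits encoded by mitochondrial DNA were called higher, but 6 of them (mt-Nd3, mt-Nd4l, mt-Co2, mt-Co3, mt-Atp6 and mt-Atp8) were listed at or near 0 in trachea, lung and diaphragm, where mt-Co1 had wt means of 13250 to 18849 TPM. These 6 genes are used by every cell, so no level is drawn from their values, and the cause was not tested. The other 7 had log2 fold changes of 2.50 to 3.80, for example 3.80 for mt-Co1 and 3.63 for mt-Cytb. Cyc1, which encodes cytochrome c1, was at 181 to 366 TPM in the other wt contexts and 1901 TPM in iBAT, and Cycs, somatic cytochrome c, at 28.9 to 139 and 1162 TPM.

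Ucp1, the uncoupling protein of brown fat, was at 2320 to 6969 TPM in wt iBAT libraries and at most at a mean of 0.273 TPM elsewhere. The coactivator Ppargc1a was at 28.003 TPM in wt iBAT and 1.33 to 17.3 TPM elsewhere, and the receptor Esrra at 145 and 13.7 to 28.7 TPM. Nrf1 ran the other way, at 5.15 TPM in iBAT against 16.1 to 29.1 TPM (log2 fold change -0.78 from somites at E12.5, SE 0.09, edgeR adjusted p = 8.47e-07). Tfam, which packages mitochondrial DNA, was at 49.3 TPM in iBAT and 37.8 to 67.8 TPM elsewhere, and the ADP/ATP carrier Slc25a4 at 715 and 467 to 932 TPM. Mitochondrial DNA genes took 21.9 to 26.3% of the TPM of wt iBAT libraries, so no direction is drawn for Tfam and Slc25a4. The ranges elsewhere take in both tables, which differ in read layout and centre. In the diaphragm against lung, 8 of 12 citric acid cycle genes, 6 of 7 tested mitochondrially encoded subunits and 7 of 47 other assembly factors were called higher, where 20.9% of all genes were.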

How the data were processed

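Whole-tissue polyA RNA of 57 libraries was sequenced as described above. Per the study's methods, reads were trimmed by the authors (Trim Galore 0.6.5), aligned to GRCm39 (STAR 2.7.9a) and counted per gene with featureCounts 2.0.3 on an Ensembl annotation curated at the Hox genes. The strand setting is not given in the sources used here. The deposited counts are whole reads per gene with no normalization, and the deposited TPM values are the authors' length- and depth-scaled levels, given separately for the 32 respiratory libraries and the 25 somite and iBAT libraries. Reads of near-identical copies (Cox5b and Cox5b-ps, Ndufb11 and Ndufb11b) and of Atp5o, which has 2 entries in the annotation, may be split, so their levels are uncertain.

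Counts were tested with edgeR 4.0.16 in R 4.3.3 (quasi-likelihood test, TMM scaling), 1 fit per comparison, over all genes with a mean of at least 1 TPM in either group. A call needs a Benjamini-Hochberg adjusted p under 0.05 over all genes tested and a change of at least 1.5-fold. The standard error is the log2 fold change divided by the square root of F. Isoform ratios, log2 of TPM + 0.1, were compared with an exact two-sided permutation test over libraries (scipy 1.17.1), adjusted over pairs and contexts. The fits were tested on simulated data. Alternatives were DESeq2 1.42.0, DESeq2 size factors in edgeR, other filters, a joint fit of each whole table, a replicate block, no fold limit, Hoxa5-/- libraries in place of wt, a pseudocount of 1 and leaving out each library. Library totals alone, the Hoxa5-/- lung comparisons without 1 library, and an iBAT block by library name were chosen after seeing the data.

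Members and lists were chosen with earlier results of these data known. Named genes were the isoform pairs, every member called between genotypes, up to 4 of the largest called rises and falls per wt context comparison, the highest member of each complex per context, the members under 1 TPM in every group, the member of smallest p per genotype comparison, and listed genes outside the rule. The c-ring genes and Cox5b in iBAT, Uqcr10 in trachea and Uqcrb in somites at E10.5 were chosen after their values were seen. Same-numbered libraries deviated together in every pair (correlation over 0.1) for iBAT genotypes (0.128 to 0.396) and for wt trachea and lung (0.202 to 0.539). For trachea and lung this was seen in the data only. The iBAT library names share a first number across genotypes, 1 number for each of replicates 1 to 3 and 1 for replicates 4 and 5 together, whose meaning the labels do not give. Intervals for reads are exact and cover counting error only.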

Additional observations from a re-analysis of the deposited data

Results flagged for a closer look

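Of 130 sums and isoform ratios in groups of 4 or 5 libraries, 10 had a highest or lowest library set apart from the rest of its group by Dixon's criterion, where chance sets apart about 1 in 20. In lung E15.5 Hoxa5-/- replicate 4, the library with 30.7% of TPM in ribosomal RNA genes, the summed TPM was lowest for complex I (3125), complex III (1383) and complex IV (2946), and the Cox7a1 to Cox7a2 log2 ratio was highest (-4.57). In lung E12.5 Hoxa5-/- replicate 1, rich in erythroid markers, complex II summed to 697 TPM. In iBAT Hoxa5-/- replicate 2, complex IV summed to 30237 TPM and the Cox8b to Cox8a log2 ratio was -0.35, both the lowest of the group. In somites at E12.5 complex V summed to 5060 (5059.7) TPM in wt replicate 4 and complex II to 705 TPM in Hoxa5-/- replicate 4. In somites E10.5 wt replicate 4 the Cox6a2 to Cox6a1 log2 ratio was -13.00, because the library held 0 reads of Cox6a2.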

How the results depend on the processing

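Between genotypes, the count of 0 members called held under each alternative in 6 contexts. In the diaphragm DESeq2 called 1 (Ndufa4l2) and the replicate block 1 (Cox7a1, log2 fold change -1.04, edgeR adjusted p = 0.0132), with Cox6a2 past the adjusted p under the fold limit (-0.38, adjusted p = 0.0371), although same-numbered diaphragm libraries did not all deviate together. Between wt contexts, dropping the fold limit gave 31 members for the lung stages, 84 for diaphragm against lung, 81 for diaphragm against trachea, 29 for trachea against lung and 50 for the somite stages, where 50.2, 58.7, 49.01, 49.6 and 63.3% of all genes passed. Library totals alone, added after seeing the data, gave 21 and 14 for the diaphragm against lung and trachea, where TMM gave 47 and 40. Hoxa5-/- libraries in place of wt gave 3 for the somite stages, where wt gave 7, and turned Cox5b-ps between lung stages from -0.80 to 0.0092. Leaving out 1 library at a time gave 6 to 14 members for the somite stages and 0 to 40 for the interaction of the somite stages, the higher value in both without somites E10.5 wt replicate 3, and 2 to 3, 36 to 57, 30 to 58, 6 to 8 and 92 to 92 for lung stages, diaphragm against lung, diaphragm against trachea, trachea against lung and iBAT. With the replicate block the counts were 0 for iBAT genotypes (also 0 with a block by the shared number in the library names, added after seeing the data) and 9 in place of 8 for trachea against lung, the comparisons with paired deviations, and 3, 45, 40, 7 and 92 for lung stages, diaphragm against lung, diaphragm against trachea, somite stages and iBAT against somites, so it changed no other count by over 1.5 times. The causes of these differences were not tested. For Cox8b and Cox6a2 in lung and in somites at E10.5, 0 to 32 reads a library limit the size of any fold change.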

Other observations

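Over the 14 group means, the genes whose log2 levels ran most like Cox7a1 among 23490 genes were Mcpt4 (Pearson r = 0.993), Coq10a (0.993), Acadm (0.992), Flad1 (0.992) and Ctcflos (0.991). The points share libraries and iBAT lies far from the rest, so this is a description only.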
